A study of Mus musculus with 14 samples.

Results

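The unperturbed starting points of the 2 systems of the study were compared: control liver and control immortalized mouse embryonic fibroblasts (iMEFs), both with intact *Terf2*, the gene of the telomere-binding protein TRF2. The members were the 4 control liver libraries and the 3 control iMEF libraries, 7 of the 14 RNA-seq libraries of the series, chosen by their labels alone and normalised together. The livers came from mice of the labelled genotype Rosa-mTmG that carried no floxed *Terf2* allele, and had received AAV8-Tbg-Cre through the tail vein 6 to 7 weeks before collection. The mTmG locus is a red-to-green fluorescent reporter of Cre activity, and Cre was driven by the hepatocyte-active TBG promoter. The sources used here do not give the age of the mice. The iMEFs carried Trf2F/F;Rosa-CreER, that is, floxed *Terf2* alleles and a Cre that stays inactive without tamoxifen. They were given vehicle and grown in DMEM with 10% fetal bovine serum. They had been isolated from embryos stripped of their visceral organs and immortalized with SV40 large T antigen, a viral protein that binds p53 and the RB family proteins. The libraries are described in the methods as biological replicates, but no source used here says whether the 3 iMEF libraries came from separate embryos or from separate dishes of 1 line, and p-values measure only the spread between these samples.

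Tissue and culture were confounded. Each liver library differed from each iMEF library at the same time in cell types, in growth in an animal or on plastic with serum, in adult or embryonic origin, in large T antigen, in genotype, in virus and Cre, and in the count table that held it, and these cannot be told apart. A difference below is therefore a difference between these 2 groups of libraries and belongs to no single one of those factors. In addition, whole liver is a mixture, so that for any gene fewer cells of a type and less RNA per cell cannot be told apart.

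Adult hepatocytes are long-lived secretory cells that are mostly outside the cell cycle, rich in mitochondria, and supply the blood with albumin and other plasma proteins, clear ammonia and drugs, and make glucose and ketone bodies. Fibroblasts in serum divide, lay down collagen and other matrix, and rely heavily on glycolysis. Telomeres are capped by shelterin, the complex of TRF1, TRF2, RAP1, TIN2, TPP1 and POT1. When TRF2 is removed the chromosome ends are read as breaks, ATM and p53 are activated, and *Cdkn1a*, which encodes the CDK inhibitor p21, can stop the cell cycle. The levels of these genes before TRF2 is lost are the baseline on which each system responds.

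The 4 livers held 16729877 to 18015991 reads in genes and the 3 iMEF libraries 18396405 to 20177401, so depth differed little between the groups. The correlation of log2 levels was 0.979 to 0.981 between livers, 0.994 to 0.995 between iMEF libraries and 0.397 to 0.417 across the groups. The reads of the livers were concentrated in few genes: the 50 most abundant took 29.0% to 29.5% of liver reads and 10.9% to 11% of iMEF reads. Levels are given as CPM, the counts of a gene scaled to a common library total, after TMM normalisation, which discounts this concentration, and log2 differences are control liver over control iMEF from a single edgeR quasi-likelihood fit of 15524 genes, with Benjamini-Hochberg adjusted p-values. Of the genes tested, 85.5% passed an adjusted p of 0.05, 44.8% higher in liver (6947 genes) and 40.7% higher in iMEFs (6325 genes). Beyond a 2-fold difference, tested as such, 57% were called, 32.3% higher in liver and 24.7% higher in iMEFs. The counts of members below are to be read against these shares, and the median log2 difference over all tested genes was 0.11. Without TMM, on library size alone, every log2 difference moved by about -0.86, the median over all genes became -0.75, and the part of all calls that were higher in liver went from 52.3% to 36.2%. Members whose direction turned with that scaling are named where they occur. Shares of a library's reads, given below, are of raw reads and carry no TMM factor.

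**Figure D1:**
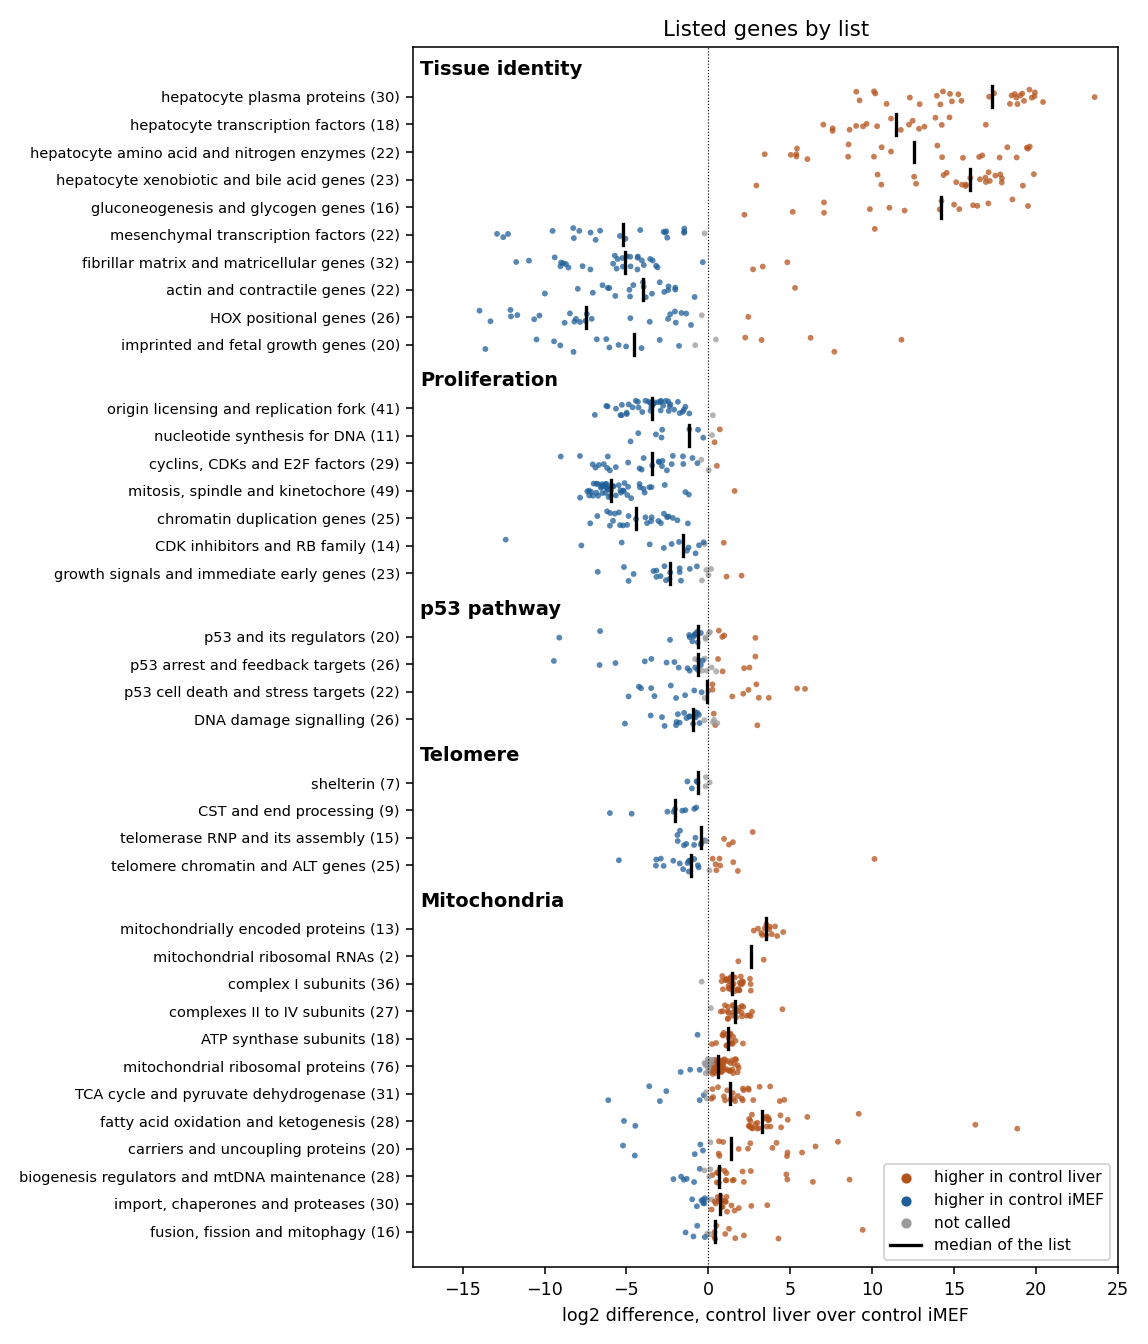
Fitted log2 difference of each tested member (point) of the gene lists, control liver over control iMEF, grouped by theme; orange points were higher in control liver and blue points higher in control iMEF at an adjusted p of 0.05, grey points were not called, black bars are list medians and numbers in brackets are tested members; members without a read in a group are drawn at a fitted value that depends on the prior count. The hepatocyte lists lie far to the right, the 5 cell cycle lists almost wholly to the left, the p53 lists on both sides of 0, the CST and end-processing list wholly to the left with the other telomere lists on both sides or close to 0, and the mitochondrial lists mostly to the right.

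The hepatocyte programme was present in the livers and all but absent from the iMEFs. All 30 listed plasma protein genes, all 18 hepatocyte transcription factors, all 22 amino acid and nitrogen enzymes, all 23 xenobiotic and bile acid genes and all 16 gluconeogenesis and glycogen genes were higher in liver, each also beyond 2-fold. Over all tested genes the shares in that direction were 44.8% and 32.3%. Plasma protein genes alone took 16%, 15.9%, 15.8% and 15.3% of the reads of the 4 livers and 0.00329%, 0.00282% and 0.00311% of those of the 3 iMEF libraries. *Alb*, which encodes albumin, stood at 89486, 79300, 78774 and 76450 CPM in the livers and at no read in the iMEFs, at least 2199593-fold higher when 3 reads over the 3 iMEF libraries are taken as the floor. *Fga*, the fibrinogen alpha chain, had 5287, 6355, 5584 and 5484 CPM in the livers and no iMEF read. The nuclear receptor gene *Hnf4a*, a master regulator of hepatocyte identity, had 874.0, 847.5, 821.2 and 716.8 CPM against no iMEF read, at least 22091-fold higher. The group of livers was tight for these genes and never met the iMEFs.

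Enzymes of the liver's characteristic metabolism followed. *Cps1*, the entry enzyme of the urea cycle, had 5345, 4903, 4550 and 5991 CPM in the livers, and *Cyp2e1*, a pericentral cytochrome P450, had 5659, 6239, 7524 and 5326 CPM; neither had a read in the iMEFs. *Pck1*, the gene of the gluconeogenic enzyme PEPCK, had 3856, 2749, 2231 and 1148 CPM and *G6pc*, the gene of glucose-6-phosphatase, 1184, 1437, 623.2 and 363.5 CPM, again without an iMEF read. These last 2 genes varied among the livers, with liver 4 lowest in both. Both metabolic zones of the lobule were represented, since all 12 listed pericentral genes and 11 of 12 periportal genes were higher in liver. The exception, *Sox9*, also a marker of bile duct cells, had 6.39, 7.29, 7.05 and 10.8 CPM in the livers and 49.9, 48.9 and 47.6 CPM in the iMEFs (log2 difference -2.63, SE 0.16, adjusted p = 3.10e-08).

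To show the regulatory sequence that goes with this contrast, the 100 bases before the RefSeq start site were read for *Alb* (chr5:90460770-90460869, plus strand) and *Fga* (chr3:83026053-83026152, plus strand) on GRCm38.p6. Capitals mark GTTAAT, the half-site bound by the hepatocyte factor HNF1, and, in *Alb*, CCAAT boxes, each on either strand.
Alb: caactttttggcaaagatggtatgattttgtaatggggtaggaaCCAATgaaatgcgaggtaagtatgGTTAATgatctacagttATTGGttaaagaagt
Fga: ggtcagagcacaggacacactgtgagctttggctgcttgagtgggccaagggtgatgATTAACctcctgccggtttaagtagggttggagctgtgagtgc
The half-site began 32 bases before the start of *Alb* and 43 bases before that of *Fga*. Over windows from 250 bases before to 50 bases after the start, GTTAAT on either strand occurred in 8 of 25 promoters of the plasma protein genes (32.0%, for 22 of 30 genes with an entry) and in 7.1% of all 32851 RefSeq promoters. It was in 2 of 49 promoters of mitotic genes. CCAAT was in 11 of 25 plasma protein promoters (44%) and in 37.4% of all promoters. A match describes the letters and not a bound site.

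Whole liver also held the RNA of its other cells. All 14 Kupffer cell and macrophage markers were higher in liver, and their summed level was 488.6 to 1059 CPM in the livers and 2.85 to 3.31 CPM in the iMEFs. *Clec4f*, a Kupffer cell lectin, had 169.6, 92.5, 152.3 and 180.7 CPM in the livers and no read in the iMEFs, with liver 2 lowest. All 13 endothelial markers were higher in liver (summed 562.2 to 658.1 against 28.5 to 32.2 CPM), as were all 8 tested lymphocyte markers (26.1 to 47.7 against 0.282 to 0.693 CPM), 5 of 5 tested red blood cell genes (136.2 to 221.3 against 0.037 to 0.458 CPM) and 9 of 9 epithelial markers (1042 to 1222 against 39.4 to 40.0 CPM). Of 12 hepatic stellate cell markers 10 were higher in liver; *Reln*, which encodes reelin, had 109.4, 107.7, 100.9 and 104.3 CPM in the livers and 1 read in all iMEF libraries. *Pdgfrb*, a platelet-derived growth factor receptor gene of mesenchymal cells at large, went the other way with 13.1, 17.6, 14.5 and 17.8 CPM against 196.3, 178.0 and 167.4 CPM (log2 difference -3.52, SE 0.12, adjusted p = 2.07e-10). The cholangiocyte list split, 3 of 7 higher in liver and 3 higher in iMEFs (*Spp1*, *Krt7* and *Sox9*). Its median changed sign when liver 2 was left out, from 0.38 to -0.83.

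The iMEFs carried mesenchymal, matrix and positional genes. All 11 tested fibroblast markers were higher in iMEFs, with a summed level of 8889 to 9505 CPM against 81.6 to 123.9 CPM in the livers. Of 32 matrix genes 29 were higher in iMEFs, against a background of 40.7%. The list took 3.96%, 3.71% and 3.83% of iMEF reads against 0.244%, 0.286%, 0.273% and 0.274% of liver reads, 14.2 times as much. With TMM its summed level showed a narrower gap, at 26392 to 28063 CPM in the iMEFs and 3155 to 3708 CPM in the livers. *Col1a1*, the main chain of type I collagen, had 5062, 4549 and 4596 CPM in the iMEFs and 4.59, 20.2, 7.21 and 9.18 CPM in the livers (log2 difference -8.85, SE 0.42, adjusted p = 4.07e-09). *Lox*, whose enzyme cross-links collagen, had 1338, 1371 and 1511 CPM against 0.861, 1.14, 0.392 and 0.43 CPM. *Fn1*, fibronectin, which hepatocytes also secrete into plasma, was among the 10 most abundant iMEF genes but differed little. It had 3642, 3063 and 3716 CPM in the iMEFs and 2469, 2833, 2929 and 2780 CPM in the livers (log2 difference -0.34, SE 0.10, adjusted p = 0.00748). The matrix genes higher in liver were *Dcn* (225.2, 215.0, 189.4 and 186.8 against 7.55, 5.57 and 8.58 CPM), *Lum* (14, 18.5, 16.1 and 10 against 1.23, 1.44 and 1.7 CPM) and *Eln* (3.88, 9.04, 5.17 and 6.74 against 1.58, 0.705 and 0.518 CPM), which encode decorin, lumican and elastin. Among 22 actin and contractile genes 21 were higher in iMEFs, *Acta2* (smooth muscle actin) at 478.8, 493.7 and 497.6 CPM against 1, 10.3, 1.72 and 1.86 CPM, with liver 2 the highest liver; the exception was *Des*, desmin, a marker of stellate cells, at 7.54, 11.4, 8.94 and 9.47 CPM in the livers and 0.154, 0.317 and 0.222 CPM in the iMEFs.

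Of 22 mesenchymal transcription factor genes 20 were higher in iMEFs, against a background of 40.7%. *Tbx15*, *Osr1* and *Osr2*, regulators of skeletal and connective tissue development, had no read in any liver and, in the 3 iMEF libraries, 50.4, 46.8 and 51.3 CPM, 38.7, 39.5 and 35.8 CPM and 32.8, 30.9 and 29.6 CPM in that order. *Tcf21* was the single member higher in liver, with 8.76, 8.13, 6.9 and 5.81 CPM and no iMEF read. HOX genes keep a record of position along the body axes. Of 39 listed, 26 passed the filter on low counts, 24 were higher in iMEFs and *Hoxb4* alone was higher in liver, at 2.08, 2.66, 3.37 and 3.44 against 0.462, 0.669 and 0.444 CPM. Genes of the distal end of the clusters were among them: *Hoxd13* had 97.5, 103.2 and 110.2 CPM in the iMEFs and *Hoxa13* 26, 27.6 and 28.6 CPM, with no read in any liver, at least 1860-fold and 491.3-fold higher. Imprinted and fetal growth genes went in both directions, with 13 of 20 higher in iMEFs and 5 higher in liver, against backgrounds of 40.7% and 44.8%. The fetal RNA *H19* had 277.7, 242.4 and 225.5 CPM against 0.144, 0.912, 0.0784 and 0.717 CPM, whereas *Igf1*, the postnatal growth factor that the liver releases, had 929.3, 1184, 999.5 and 1007 CPM in the livers and 11.8, 12.7 and 16.3 CPM in the iMEFs.

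The cell cycle lists were almost wholly higher in the iMEFs. The 5 lists (origin licensing and replication fork, nucleotide synthesis, cyclins with CDKs and E2F factors, mitosis, and chromatin duplication) held 155 genes, of which 147 were higher in iMEFs and 4 higher in liver, against a background of 40.7% and 44.8%; 139 were higher in iMEFs beyond 2-fold, and the median log2 difference was -4.28. Together they took 2.13%, 2.17% and 2.18% of iMEF reads and 0.135%, 0.132%, 0.121% and 0.139% of liver reads, 16.4 times as much in the iMEFs. With TMM their summed level showed a narrower gap, at 15057 to 15649 CPM in the iMEFs and 1593 to 1769 CPM in the livers. The groups did not meet in either measure. The exact two-sided permutation test on the shares, which doubled the p of the smaller tail, gave p = 0.0571. That is the smallest this form of the test allows with 35 arrangements of 7 libraries. It therefore cannot pass 0.05 here or for any other share.

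Mitotic genes had the widest gap of the 5 lists. Of 49 genes 48 were higher in iMEFs, with a median of -5.97, and their summed level was 4735 to 5139 CPM in the iMEFs and 169.5 to 204.9 CPM in the livers. *Ccnb1*, cyclin B1, which drives entry into mitosis, had 170.4, 190.1 and 203.9 CPM in the iMEFs and 1.65, 0.228, 0.862 and 0.502 CPM in the livers (log2 difference -7.84, SE 0.26, adjusted p = 2.09e-10). *Bub1*, a spindle checkpoint kinase gene, had 77.2, 85 and 95.9 CPM against 0.215, 0.988, 0.0784 and 0.215 CPM (log2 difference -7.83, SE 0.30, adjusted p = 7.20e-10). *Foxm1*, the transcription factor of the mitotic programme, had 139.9, 130.5 and 125.6 CPM against 1.36, 0.836, 0.784 and 0.932 CPM. The only mitotic gene higher in liver was *Pttg1*, securin, at 33.9, 34, 32.6 and 36 CPM against 11.4, 12.9 and 9.47 CPM (log2 difference 1.60, SE 0.12, adjusted p = 2.44e-07).

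Replication genes behaved likewise but less steeply. Of 41 licensing and fork genes 40 were higher in iMEFs, with a median of -3.42. *Mcm2*, a subunit of the replicative helicase, had 234.6, 246.6 and 233.2 CPM against 4.38, 5.39, 2.12 and 7.1 CPM (log2 difference -5.64, SE 0.24, adjusted p = 1.45e-09), and the licensing factor gene *Cdc6* had 37, 40.4 and 36.5 CPM against 0.646, 0.304, 0.0784 and 0.932 CPM. All 25 chromatin duplication genes were higher in iMEFs, with *Uhrf1*, which recruits the maintenance DNA methyltransferase, at 216.2, 223.8 and 214.0 CPM against 0.933, 2.2, 0.784 and 1.94 CPM. Nucleotide synthesis was mixed, with 8 of 11 genes higher in iMEFs: *Rrm2*, the S-phase subunit of ribonucleotide reductase, had 140.6, 145.5 and 146.0 CPM against 6.75, 7.45, 4 and 3.16 CPM (log2 difference -4.75, SE 0.21, adjusted p = 2.29e-09). *Cmpk1*, a pyrimidine nucleotide kinase gene, had 113.7, 106.0, 106.0 and 108.1 CPM in the livers and 65.7, 65.1 and 69.9 CPM in the iMEFs. It was called higher in liver with TMM and turned on library size alone.

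Among 29 cyclin, CDK and E2F genes 26 were higher in iMEFs. *Ccne1*, cyclin E1, had 35.7, 37.8 and 35 CPM against 0.144, 0.38, 0.157 and 0.502 CPM. The D-type cyclins parted: *Ccnd2* was higher in iMEFs, at 129.2, 126.6 and 127.2 CPM against 14.7, 15.5, 17.7 and 23.7 CPM (log2 difference -2.83, SE 0.14, adjusted p = 5.92e-09), whereas *Ccnd1* had 118.6, 126.8, 113.5 and 132.4 CPM in the livers and 84.1, 88.8 and 83.2 CPM in the iMEFs (log2 difference 0.52, SE 0.08, adjusted p = 7.16e-05), a direction that turned on library size alone. Exons of *Ccnd1* are overlapped over 23.4% of their length by a gene on the other strand, and the sources do not say whether the counting used strand. Growth signal and immediate early genes were mostly higher in the serum-grown cells (17 of 23, against a background of 40.7%). Among them was *Fosl1*, a subunit of the AP-1 factor, at 29.5, 27.9 and 28.6 CPM against 0, 0.304, 0.314 and 0.43 CPM. Of its exon length 57.2% is overlapped on the other strand. *Mxd4*, a MYC antagonist gene of resting cells, was higher in liver at 128.5, 121.2, 118.8 and 120.7 CPM against 56.1, 61.7 and 51.7 CPM (log2 difference 1.11, SE 0.08, adjusted p = 1.94e-07), as was *Mycl*, at 17.5, 14.8, 13.8 and 7.53 against 3.31, 3.35 and 3.18 CPM.

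The promoters of 3 of these genes are shown for 2 kinds of motif searched. They were read from RefSeq on GRCm38.p6 and stop at the base before the start site: *Cdc20* (chr4:118437344-118437443, minus strand) and *Ube2c* (chr2:164769829-164769928, plus strand), which encode an activator and an enzyme of the anaphase-promoting complex, with the CHR element TTTGAA and CCAAT boxes in capitals, and *Mcm5* (chr8:75109329-75109508, plus strand), with the E2F motif TTGGCGC in capitals, each on either strand.
Cdc20: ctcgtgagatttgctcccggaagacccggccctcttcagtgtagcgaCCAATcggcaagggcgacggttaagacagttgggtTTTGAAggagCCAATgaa
Ube2c: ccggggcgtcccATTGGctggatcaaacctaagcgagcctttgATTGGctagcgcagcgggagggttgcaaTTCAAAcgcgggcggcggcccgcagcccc
Mcm5: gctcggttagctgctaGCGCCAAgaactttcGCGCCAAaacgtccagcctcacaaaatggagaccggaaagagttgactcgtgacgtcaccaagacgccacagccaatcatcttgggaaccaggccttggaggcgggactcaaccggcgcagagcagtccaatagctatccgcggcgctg
The CHR element, through which the DREAM and MMB complexes act on cell cycle genes, was found in 33 of 49 promoters of mitotic genes (67.3%, for 43 of 49 genes with an entry), in 5 of 38 promoters of licensing genes (13.2%) and in 17.9% of all 32851 promoters of this length. CCAAT occurred in 75.5% of the mitotic promoters, 57.9% of the licensing promoters and 37.4% of all. The E2F motif TTGGCGC was in 9 of 38 licensing promoters (23.7%), in 5 of 49 mitotic promoters (10.2%) and in 2.45% of all, and a second E2F motif, TTCCCGC, was in 34.2% of the licensing promoters, 8.16% of the mitotic promoters and 4.6% of all. In the libraries, *Cdc20* had 131.0, 126.0 and 121.8 CPM in the iMEFs and 1.44, 3.8, 0.941 and 2.94 CPM in the livers, *Ube2c* 139.4, 152.0 and 155.3 against 1.15, 2.36, 0.627 and 2.08 CPM, and *Mcm5* 177.0, 188.5 and 171.7 against 3.8, 4.48, 2.74 and 6.17 CPM. Exons of *Ube2c* are overlapped on the other strand over 22.8% of their length.

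Genes that restrain the cell cycle were also mostly higher in the iMEFs. Of 14 CDK inhibitor and RB family genes 12 were higher in iMEFs, against a background of 40.7%. *Cdkn2a*, the locus of p16INK4a and p19ARF, had 551.5, 545.5 and 483.0 CPM in the iMEFs and 0.287, 0.076, 0 and 0 CPM in the livers, where 2 libraries held no read (log2 difference -12.37, SE 0.26, adjusted p = 8.54e-12). Its neighbour *Cdkn2b*, p15INK4b, had 58.2, 57.9 and 55.9 CPM against 0.144, 0.38, 0.47 and 0.0717 CPM (log2 difference -7.75, SE 0.23, adjusted p = 9.02e-11). *Cdkn2c* (69.1, 72.2 and 64.1 against 10.7, 10.5, 10.2 and 10 CPM) and *Cdkn1b* (84.7, 81.5 and 87.8 against 39.1, 30.8, 36 and 40.4 CPM), which encode p18 and p27, were higher in iMEFs by smaller margins. The gene counts do not separate the p16 and p19 transcripts of *Cdkn2a*.

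The gene of p21, *Cdkn1a*, did not separate the groups. It had 35.5, 46.5, 14 and 12 CPM in the livers and 34.8, 30.6 and 28.8 CPM in the iMEFs (log2 difference -0.22, SE 0.38, adjusted p = 0.604). Livers 1 and 2 were at or above the iMEFs and livers 3 and 4 below them, so the groups overlapped and the spread lay within the liver group. On library size alone the difference became -1.08 and was called. This does not show that the levels were alike. The same division of the livers was seen in some genes of the circadian clock, which were chosen after their values were seen: *Nr1d1*, the gene of the clock repressor REV-ERB alpha, had 44, 29.6, 140.9 and 161.6 CPM, *Per1* 26.1, 18.8, 7.6 and 6.09 CPM and *Npas2* 22.7, 20.7, 12.3 and 8.32 CPM in livers 1 to 4. Other clock genes looked at did not divide the livers in this way, so the division is not a trait of clock genes as a class. The part of clock time in the level of *Cdkn1a* was not tested, and no source used here gives the hour of collection.

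The pocket proteins exchanged places. *Rbl1*, p107, which is made as cells cycle, had 59, 65.8 and 69.4 CPM in the iMEFs and 3.88, 5.17, 4.94 and 7.67 CPM in the livers (log2 difference -3.58, SE 0.18, adjusted p = 6.37e-09), whereas *Rbl2*, p130, the pocket protein of resting cells, had 45.2, 41, 46.2 and 42.2 CPM in the livers and 21.1, 24.3 and 22.9 CPM in the iMEFs (log2 difference 0.94, SE 0.10, adjusted p = 2.85e-06). The call for *Rbl2* was lost on library size alone, at 0.08. *Rb1* itself differed less, at 10.3, 13.1, 10.2 and 10.5 against 18.1, 17.2 and 21.6 CPM (log2 difference -0.78, SE 0.14, adjusted p = 2.98e-04). Per kilobase of exon, the log2 ratio of *Rbl1* over *Rbl2* was -2.71 ± 0.45 (SD, n = 4) in the livers and 1.84 ± 0.08 (SD, n = 3) in the iMEFs. Exons of *Rbl2* are overlapped on the other strand over 21% of their length.

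The p53 lists were divided between the groups. Of 20 tested genes of p53 and its regulators 12 were higher in iMEFs and 4 in liver, against backgrounds of 40.7% and 44.8%. *Trp53* had 175.4, 180.2 and 176.4 CPM in the iMEFs and 32.6, 38.6, 31.2 and 37.4 CPM in the livers (log2 difference -2.34, SE 0.09, adjusted p = 6.15e-10), which is 5.08-fold, and the groups lay far apart. *Mdm2*, the ubiquitin ligase that degrades p53 and is itself a p53 target, was higher in iMEFs by less than 2-fold, at 66.3, 70.2 and 78.7 against 42.7, 40.3, 43.3 and 38.8 CPM (log2 difference -0.80, SE 0.09, adjusted p = 5.47e-06). *Mdm4*, which restrains p53 without degrading it, was higher in liver with TMM, at 84.1, 91.6, 88.3 and 86 against 48.9, 48 and 48.6 CPM (log2 difference 0.85, SE 0.07, adjusted p = 5.82e-07), and had a log2 difference of -0.01 on library size alone. *Ppm1d*, the phosphatase WIP1 that ends the p53 response, had 18.6, 17.4 and 17.5 CPM against 8.25, 8.81, 7.37 and 7.89 CPM. *Trp53inp1*, a stress-induced partner of p53, was the regulator with the greatest excess in liver, at 229.2, 204.1, 119.6 and 122.0 against 23.9, 21 and 24.3 CPM (log2 difference 2.87, SE 0.24, adjusted p = 5.29e-07), and livers 1 and 2 were again above livers 3 and 4. *Trp63*, the p53 relative of epithelia and limb ectoderm, had no liver read and 2.96, 3.63 and 4.07 CPM in the iMEFs.

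Targets of p53 were divided between the groups. Among 26 tested arrest and feedback targets 15 were higher in iMEFs and 5 in liver, and among 22 cell death and stress targets 10 were higher in each group, against backgrounds of 40.7% and 44.8%. The medians were -0.63 and -0.11. Targets higher in iMEFs included *Plk2* (164.5, 165.5 and 181.5 against 14.1, 13.1, 19.4 and 14.4 CPM) and *Phlda3* (38.3, 37 and 35 against 2.73, 2.51, 1.96 and 2.72 CPM), a kinase and a repressor of AKT. *Ccng1*, cyclin G1, a widely used p53 target, differed by less than 1.5-fold, at 73.5, 73.9 and 79.9 against 56.6, 57.8, 51 and 54.3 CPM (log2 difference -0.46, SE 0.08, adjusted p = 1.73e-04). Higher in liver were *Xpc*, a sensor of nucleotide excision repair, at 29.6, 34.6, 34.5 and 34.9 against 5.89, 6.38 and 5.33 CPM (log2 difference 2.51, SE 0.12, adjusted p = 4.98e-09), and the kinase gene *Plk3*, at 57.1, 47.6, 38.1 and 37.2 against 11.8, 9.02 and 8.99 CPM. *Gtse1*, listed as a target, is also a G2 and M phase gene, and had 48.8, 54.1 and 52 CPM against 0.646, 0.912, 1.72 and 0.789 CPM.

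The death genes sorted by member. In the iMEFs the higher levels were of *Bax*, the pore-forming BCL2 relative, at 48.1, 51.8 and 41.3 against 17.6, 20.5, 16.2 and 15.8 CPM (log2 difference -1.42, SE 0.12, adjusted p = 6.22e-07), *Pmaip1*, NOXA, at 18.9, 16.9 and 17.5 against 1.15, 1.14, 0.862 and 0.932 CPM, and *Apaf1*, the core of the apoptosome, at 61.5, 64.2 and 69.1 against 6.53, 4.86, 5.33 and 6.38 CPM. *Tnfrsf10b*, the mouse TRAIL receptor, had 58.1, 63.6 and 62.1 CPM in the iMEFs and 1.15, 1.14, 4 and 2.15 CPM in the livers (log2 difference -4.87, SE 0.28, adjusted p = 2.32e-08). In the livers the higher levels were of the other death receptor gene, *Fas*, at 29.4, 27.6, 32.5 and 26.7 against 5.39, 7.22 and 7.32 CPM (log2 difference 2.13, SE 0.14, adjusted p = 8.27e-08), of *Bbc3*, PUMA, at 20.4, 13.8, 21.4 and 40.8 against 11.3, 8.91 and 6.21 CPM, with liver 4 above the rest and no call on library size alone, and of *Perp*, a desmosomal membrane protein gene, at 164.7, 156.8, 184.2 and 155.1 against 19.1, 18.6 and 20.8 CPM. *Gdf15*, which encodes a stress hormone, had 14.3, 11.1, 16.4 and 18.4 CPM in the livers and 0.346, 0.282 and 0.407 CPM in the iMEFs (log2 difference 5.42, SE 0.27, adjusted p = 7.09e-09).

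**Figure D2:**
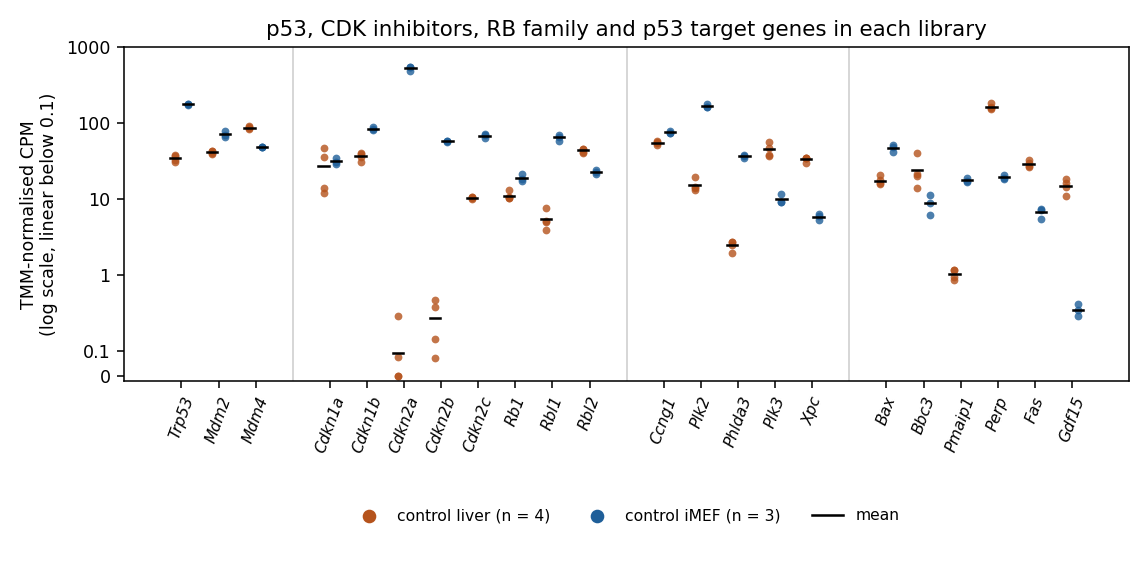
Level of p53, its regulators *Mdm2* and *Mdm4*, CDK inhibitors, RB family genes and p53 targets in each of the 4 control liver libraries (orange) and 3 control iMEF libraries (blue), in TMM-normalised CPM on a log axis that is linear below 0.1, with black bars for means. *Cdkn1a* is the gene whose libraries overlap, *Cdkn2a* and *Cdkn2b* stand near 0 in the livers, and the targets lie on both sides.

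DNA damage signalling genes were mostly higher in the iMEFs, with 19 of 26 called in that direction and 3 called in liver, against backgrounds of 40.7% and 44.8%. *Atm*, the kinase that answers an uncapped telomere that lacks TRF2, had 47, 45.7 and 59.3 CPM in the iMEFs and 17.1, 11.7, 12.3 and 10.6 CPM in the livers (log2 difference -1.97, SE 0.16, adjusted p = 4.90e-07), and *Atr*, its relative for single-stranded DNA, had 20, 22.5 and 25.7 against 15.2, 15.4, 15.8 and 14.4 CPM (log2 difference -0.58, SE 0.12, adjusted p = 6.42e-04). The checkpoint kinase genes *Chek1* (26, 24.7 and 27.3 against 0.861, 0.456, 0.235 and 1.43 CPM) and *Chek2* (18.2, 17.9 and 19.3 against 3.59, 2.51, 3.14 and 2.37 CPM) showed wide gaps. *Trp53bp1*, 53BP1, which marks dysfunctional telomeres, had 40, 38.8 and 40.5 CPM against 17.4, 17.7, 18.1 and 17.4 CPM. *Shld1*, a shieldin subunit that acts with 53BP1 to shield DNA ends, ran the other way at 7.97, 4.26, 7.29 and 5.88 CPM in the livers and 0.731, 1.09 and 0.555 CPM in the iMEFs (log2 difference 2.99, SE 0.32, adjusted p = 5.03e-06). The genes of the DNA-dependent protein kinase *Prkdc* (15.6, 14.7, 16.4 and 15.3 against 11.7, 9.62 and 13.3 CPM) and of Ku80, *Xrcc5* (31.1, 34.3, 34.3 and 32.8 against 25.7, 27.2 and 26 CPM), were called higher in liver by small margins and turned on library size alone. Without iMEF library 1 or 2 the call for *Prkdc* was lost, at 0.40 and 0.27. Without the filter on low counts the calls for *Prkdc* (0.29) and *Xrcc5* (0.20) were lost. The gene of Ku70, *Xrcc6*, was higher in iMEFs at 51.2, 49.5 and 46.4 against 26.6, 25.5, 20.5 and 30.5 CPM.

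Shelterin genes differed little. Of 7 genes 4 (57.1%) were higher in iMEFs, against a background of 40.7%, and 3 were not called. Beyond 2-fold 1 was higher in iMEFs (14.3%, against a background of 24.7%), and the median log2 difference was -0.66. *Terf2* (chr8:107069400-107096547, minus strand, mm10), the gene that the study later deletes, was intact in both groups and had 14.6, 17.9, 17.8 and 15 CPM in the livers and 26.3, 27.3 and 26.8 CPM in the iMEFs (log2 difference -0.72, SE 0.11, adjusted p = 8.79e-05). The groups did not overlap, the fold was 1.65, and the 2-fold call was not reached. *Tinf2*, TIN2, the hub of the complex, had 17.2, 18.9, 15.2 and 15.7 against 25.1, 26.6 and 28 CPM (log2 difference -0.66, SE 0.11, adjusted p = 1.62e-04), and *Acd*, TPP1, which recruits telomerase, had 19.1, 14.9, 15.1 and 17.8 against 41.2, 41.9 and 39.2 CPM (log2 difference -1.28, SE 0.11, adjusted p = 7.08e-07), the largest difference within shelterin. *Tinf2* and *Acd* have exons overlapped on the other strand over 31.2% and 33.3% of their length. *Terf1*, the gene of the other duplex-binding protein, TRF1, had 14.9, 13.1, 16 and 12.4 and 13.9, 15.7 and 17.9 CPM, with overlapping groups (log2 difference -0.17, SE 0.14, adjusted p = 0.269). *Terf2ip*, RAP1, the partner of TRF2, had 16.9, 21.1, 23.9 and 17.9 and 17.2, 18.7 and 20.6 CPM (log2 difference 0.08, SE 0.14, adjusted p = 0.605). On library size alone *Terf1* and *Terf2ip* were called higher in iMEFs, at log2 differences of -1.03 and -0.78, as was *Pot1b*.

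Mice have a pair of POT1 genes, which divide the protection of the single-stranded overhang. *Pot1a* had 10.6, 7.83, 10.3 and 8.32 CPM in the livers and 15.7, 17.8 and 22.4 CPM in the iMEFs (log2 difference -1.01, SE 0.17, adjusted p = 1.52e-04), whereas *Pot1b* had 6.32, 4.48, 6.9 and 7.6 and 7.85, 6.66 and 6.51 CPM and was not called (log2 difference -0.15, SE 0.20, adjusted p = 0.5). The log2 ratio of *Pot1a* over *Pot1b* per kilobase was 0.03, 0.08, -0.15 and -0.59 in the livers and 0.28, 0.70 and 1.06 in the iMEFs, so that the 2 were near parity in liver and *Pot1a* led in the iMEFs. Without division by length *Pot1a* led in both, at mean log2 ratios of 0.56 and 1.40. This difference of -0.84 was among the smallest of the 13 pairs examined.

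The CST complex and the nucleases and helicases of chromosome ends were all higher in iMEFs, 9 of 9 genes with a median of -2.04, against a background of 40.7%. The CST subunit genes, which bring DNA polymerase alpha to the end for fill-in, were *Ctc1* at 44.4, 44.1 and 45.4 against 15.4, 13.9, 13 and 17.1 CPM (log2 difference -1.59, SE 0.11, adjusted p = 9.57e-08), *Stn1* at 17.2, 19.9 and 19 against 3.52, 3.72, 5.64 and 5.31 CPM (log2 difference -2.04, SE 0.18, adjusted p = 9.24e-07) and *Ten1* at 11, 13.8 and 9.62 against 1.79, 2.28, 2.12 and 1.94 CPM (log2 difference -2.50, SE 0.20, adjusted p = 3.16e-07). *Rtel1*, the helicase that unwinds the t-loop, had 48, 47.7 and 46.1 CPM against 17.8, 17.9, 14.7 and 21.1 CPM. *Dclre1b*, the nuclease Apollo that TRF2 recruits, showed a smaller gap at 12.2, 11.5 and 10.7 against 6.6, 5.93, 7.37 and 5.38 CPM (log2 difference -0.86, SE 0.16, adjusted p = 3.21e-04). *Exo1*, a resection nuclease gene also counted with the cell cycle lists, and *Pif1*, a helicase gene, were at 32.2, 31.3 and 31.3 against 1.15, 0.304, 0.392 and 0.0717 CPM and 20.4, 20.4 and 15.6 against 0.574, 0.684, 0.627 and 1 CPM.

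Telomerase genes went in both directions. *Tert*, the catalytic subunit, was higher in liver, with 10.9, 11.9, 12.8 and 31.2 CPM against 2.96, 2.22 and 2.48 CPM in the iMEFs (log2 difference 2.71, SE 0.38, adjusted p = 4.56e-05). Liver 4 stood above the other 3 livers, which were themselves all above the iMEFs. Without liver 4 the log2 difference was 2.24. Of the 15 tested genes of the telomerase particle and its assembly 10 were higher in iMEFs and 4 in liver, against backgrounds of 40.7% and 44.8%. *Dkc1*, dyskerin, which holds the telomerase RNA and also modifies ribosomal RNA, had 83.6, 77.6 and 80.6 CPM in the iMEFs and 21.5, 22.6, 20.1 and 22.6 CPM in the livers (log2 difference -1.89, SE 0.08, adjusted p = 2.05e-09). Its partners *Gar1* (29.8, 23.6 and 21.5 against 9.04, 8.21, 8.07 and 10.2 CPM) and *Nhp2* (54.1, 52.7 and 44.9 against 26.4, 30.9, 24.3 and 29.2 CPM) went with it, whereas the fourth, *Nop10*, was higher in liver at 47.1, 45.4, 47.6 and 46.8 against 20.9, 18.4 and 19.3 CPM (log2 difference 1.26, SE 0.09, adjusted p = 1.34e-07). *Terc*, the RNA template, had 0.502, 0, 0 and 0.43 CPM in the livers and 0.308, 0.141 and 0.148 CPM in the iMEFs, too few reads for a test. Telomerase RNA carries no poly(A) tail, and the sources do not say how RNA was selected for these libraries, so this level is no measure of telomerase RNA.

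**Figure D3:**
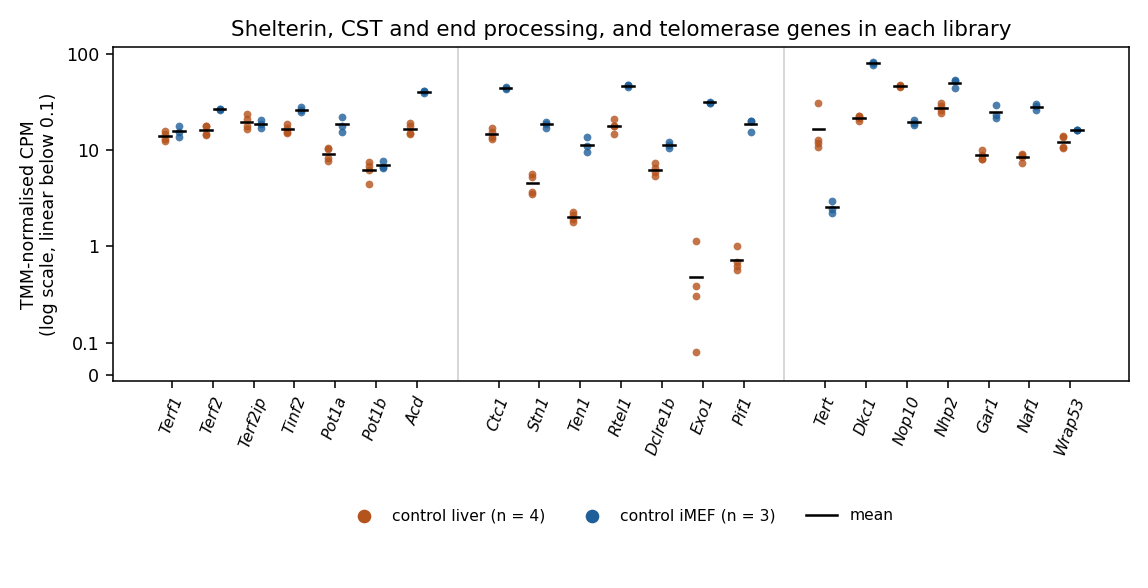
Level of shelterin genes (left), CST and end-processing genes (middle) and telomerase genes (right) in each of the 4 control liver libraries (orange) and 3 control iMEF libraries (blue), in TMM-normalised CPM on a log axis that is linear below 0.1, with black bars for means. *Terf1*, *Terf2ip* and *Pot1b* overlap between the groups, the CST genes are higher in the iMEFs, and *Tert* and *Nop10* are higher in the livers.

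Chromatin and recombination factors of telomeres gave 16 of 25 genes higher in iMEFs and 8 in liver, against backgrounds of 40.7% and 44.8%. The heterochromatin genes *Suv39h1* (63.1, 70.5 and 64.3 against 7.68, 7.67, 4.86 and 8.75 CPM) and *Cbx5*, HP1 alpha (335.6, 336.9 and 368.3 against 47.7, 59.9, 53.3 and 48.6 CPM), were higher in iMEFs. *Atrx*, whose loss accompanies telomerase-independent telomere maintenance, had 179.9, 163.1 and 193.2 CPM in the iMEFs and 91.1, 87.2, 87.9 and 74.4 CPM in the livers (log2 difference -1.07, SE 0.09, adjusted p = 6.59e-07). *Zbtb48*, TZAP, which trims long telomeres, was higher in liver at 16.1, 17.2, 23.6 and 20.4 against 7.2, 7.93 and 5.07 CPM (log2 difference 1.52, SE 0.19, adjusted p = 1.87e-05). The widest liver excess was of *Sp100*, a PML body gene induced by interferon, with 18.6, 20.9, 19 and 26.3 CPM in the livers and 1 read in all 3 iMEF libraries, while *Pml* itself had 40.8, 53.1, 45.2 and 53.9 and 49.6, 44.2 and 44.4 CPM and overlapped.

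RNA of the mitochondrial genome was far more abundant in liver. The 13 mitochondrially encoded protein genes took 4.22%, 4.47%, 4.36% and 5.07% of the reads of the livers and 0.573%, 0.696% and 0.707% of those of the iMEFs, a ratio of 6.87 (exact two-sided permutation p = 0.0571). With TMM their summed level showed a wider gap, at 54535 to 64370 CPM in the livers and 4062 to 5077 CPM in the iMEFs. All 13 were higher in liver, with a median log2 difference of 3.54 and a range from 2.77 for *mt-Atp6* to 4.57 for *mt-Nd4*. *mt-Co1*, the catalytic subunit of complex IV, had 21872, 23679, 22897 and 24207 CPM in the livers and 1559, 1783 and 1852 CPM in the iMEFs (log2 difference 3.74, SE 0.11, adjusted p = 6.65e-11). *mt-Nd1*, a subunit of complex I, had 6800, 6812, 6263 and 7604 CPM against 648.8, 973.9 and 899.7 CPM, and *mt-Cytb*, of complex III, 10365, 10706, 11214 and 12436 against 767.0, 884.3 and 880.9 CPM. *mt-Nd5* varied among the livers, at 2898, 3974, 3280 and 5851 CPM, with liver 4 highest. The mitochondrial ribosomal RNAs *mt-Rnr1* and *mt-Rnr2* were also higher in liver, at log2 differences of 3.38 and 1.83. Their summed level was 747.2 to 1174 CPM in the livers and 167.5 to 213.9 CPM in the iMEFs. The sources do not say whether ribosomal RNA was removed, so these levels are no measure of the mitochondrial ribosomal RNA in the cells.

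The mitochondrial genes had very unequal counts. *mt-Co2*, *mt-Atp6* and *mt-Co3* together had 2998 to 3717 reads in a liver library, of 729160 to 897707 in all 13 genes. A stretch of chromosome 1 (24611535 to 24616197, mm10) is annotated with 7 pseudogene copies of mitochondrial genes, to which 3270 to 3860 reads of each liver and 948 to 1166 reads of each iMEF library were assigned, equal to 0.429% to 0.479% and 0.822% to 0.899% of the reads of the 13 genes. The levels of *mt-Co2*, *mt-Co3* and *mt-Atp6* are thus uncertain, and the sources do not say how reads with several matches were handled. With the reads of the copies added, the ratio of shares was 6.85.

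**Figure D4:**
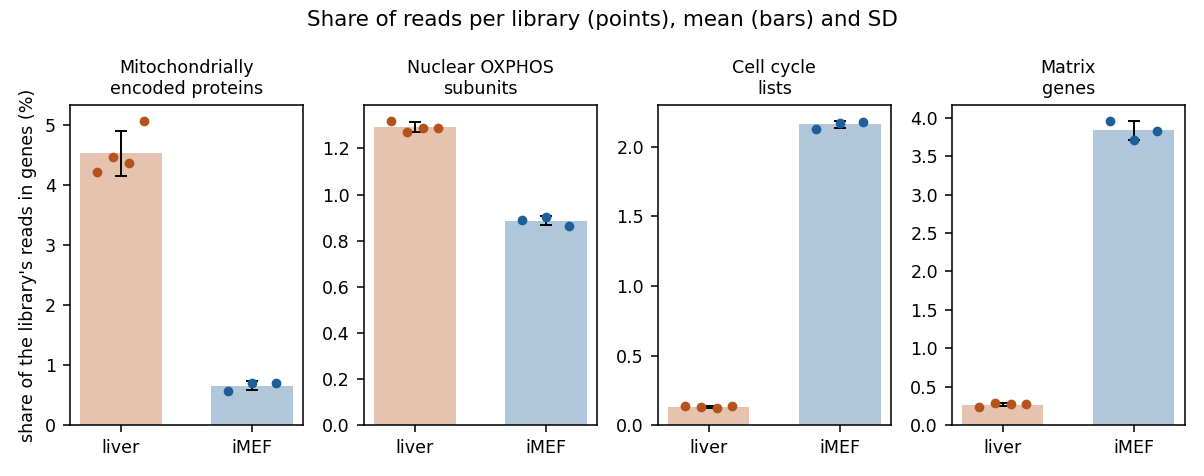
Share of each library's reads in genes (points, %) taken by 13 mitochondrially encoded protein genes, 83 nuclear OXPHOS subunit genes, 155 cell cycle genes and 32 matrix genes, with bars for the mean and black whiskers for the SD (4 control livers, 3 control iMEF libraries). The mitochondrially encoded share was 6.87 times as high in liver and the nuclear OXPHOS share 1.46 times, while the cell cycle and matrix shares were higher in the iMEFs. Shares are of raw reads, without TMM.

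Nuclear genes of the respiratory chain were higher in liver by a smaller step. Of 81 tested subunit genes of complexes I to V 78 were higher in liver and 1 higher in iMEFs, against backgrounds of 44.8% and 40.7%, with a median log2 difference of 1.44; on library size alone 67 and 4 were called and the median was 0.59. Their share of reads was 1.32%, 1.27%, 1.29% and 1.29% in the livers and 0.891%, 0.902% and 0.864% in the iMEFs, a ratio of 1.46. With TMM their summed level showed a wider gap, at 16432 to 17112 CPM in the livers and 6202 to 6415 CPM in the iMEFs. The mitochondrial and nuclear shares thus differed between the groups by unequal factors. *Ndufa6*, of complex I, had 201.9, 169.3, 176.1 and 178.9 CPM in the livers and 29, 31 and 30.6 CPM in the iMEFs (log2 difference 2.59, SE 0.09, adjusted p = 2.55e-10). *Sdha*, of complex II, had 750.4, 716.1, 704.2 and 714.8 against 133.1, 135.5 and 122.5 CPM, *Uqcrq*, of complex III, 392.6, 395.0, 395.6 and 373.6 against 65.1, 60.9 and 57.7 CPM, and *Atp5a1*, the catalytic-head subunit of ATP synthase, 1500, 1479, 1471 and 1437 against 502.4, 531.5 and 512.0 CPM. *Cox7a1*, the complex IV isoform of heart and muscle, was scarce in both, at 2.87, 2.51, 4.62 and 1.86 and 0.192, 0.176 and 0 CPM. The exception was *Atpif1*, the inhibitor of ATP synthase in reverse, at 28.5, 31.3 and 30.4 CPM in the iMEFs and 15.9, 17, 24.2 and 19.1 CPM in the livers (log2 difference -0.66, SE 0.14, adjusted p = 9.92e-04), with 33.7% of its exon length overlapped on the other strand. By complex, the median was 1.47 for complex I, 1.63 for complexes II to IV and 1.20 for ATP synthase.

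The machinery that makes mitochondrial proteins differed less than the proteins of the chain. Of 76 tested mitochondrial ribosomal protein genes 55 were higher in liver and 3 in iMEFs, against backgrounds of 44.8% and 40.7%. Beyond 2-fold 14 (18.4%) were higher in liver, below the background of 32.3%. The median was 0.59 and became -0.27 on library size alone. *Mrpl12*, which also binds the mitochondrial RNA polymerase, had 80.3, 67.5, 70 and 77.2 against 23.2, 23 and 15.1 CPM, and *Mrps6* was the clearest exception at 28.7, 29.8 and 30.3 CPM in the iMEFs against 9.9, 7.75, 9.09 and 9.75 CPM in the livers (log2 difference -1.69, SE 0.12, adjusted p = 9.60e-08). Of 30 import, chaperone and protease genes 21 were higher in liver and 7 in iMEFs (median 0.71, and -0.15 on library size alone). Beyond 2-fold 6 of the 30 (20%) were higher in liver, again below the background. *Clpx*, of the matrix protease ClpXP, had 491.5, 513.7, 502.4 and 370.9 against 38.8, 39.9 and 37.6 CPM (log2 difference 3.60, SE 0.13, adjusted p = 3.57e-10), whereas *Tomm20*, the import receptor of the outer membrane, was higher in iMEFs at 124.5, 128.9 and 143.1 against 66.6, 72, 60.6 and 67.7 CPM (log2 difference -0.99, SE 0.08, adjusted p = 6.47e-07).

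Regulators of mitochondrial biogenesis differed by member. Of 28 genes 19 were higher in liver and 6 in iMEFs, against backgrounds of 44.8% and 40.7%. Beyond 2-fold 9 (32.1%) were higher in liver, near the background of 32.3%. The median was 0.67 and became -0.19 on library size alone. The coactivator gene *Ppargc1a*, PGC-1 alpha, had 14, 12, 18.4 and 10.8 CPM in the livers and 0.693, 0.352 and 0.407 CPM in the iMEFs (log2 difference 4.82, SE 0.30, adjusted p = 4.70e-08), *Ppargc1b* had 6.75, 3.42, 7.6 and 5.02 against 2.81, 2.92 and 2.89 CPM (a call lost on library size alone, at 0.13), and their serum-responsive relative *Pprc1* went the other way, at 101.2, 99.7 and 105.0 CPM in the iMEFs against 20.6, 33.1, 20.1 and 19.4 CPM in the livers (log2 difference -2.13, SE 0.16, adjusted p = 2.67e-07). Nuclear receptors that work with PGC-1 alpha were higher in liver, with *Ppara* at 83.9, 92.7, 124.2 and 96.6 against 0.115, 0.176 and 0.444 CPM and *Esrra* at 45.6, 34, 45.7 and 48 against 15.4, 15.2 and 13.8 CPM. The general activators of respiratory genes were higher in iMEFs, with *Nrf1* at 40.9, 45.1 and 41.6 against 19.7, 19.1, 14.1 and 15.1 CPM (log2 difference -1.32, SE 0.13, adjusted p = 1.98e-06) and *Gabpa*, NRF-2 alpha, at 93.5, 98 and 105.8 against 70, 70.8, 73.8 and 62.6 CPM.

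Among the genes of mitochondrial DNA maintenance, *Tfam*, which packages and transcribes the genome, had 69.3, 68.6, 78.8 and 70.1 CPM in the livers and 48.1, 50.8 and 52.1 CPM in the iMEFs (log2 difference 0.51, SE 0.08, adjusted p = 1.13e-04), and *Polrmt*, the RNA polymerase, had 38, 34.9, 37.9 and 35.5 against 34.1, 29.7 and 28.9 CPM (log2 difference 0.24, SE 0.09, adjusted p = 0.0323). Both directions turned on library size alone, and the call for *Polrmt* was lost without liver 1, iMEF library 2 or iMEF library 3, at 0.24, 0.18 and 0.17, with upper quartile factors (0.21) and without the filter (0.11). *Ssbp1*, the single-strand binding protein, had 25.3, 25.1, 28.7 and 23.9 and 25, 22.6 and 23.2 CPM and was not called (log2 difference 0.12, SE 0.10, adjusted p = 0.268). *Top1mt*, the mitochondrial topoisomerase, was higher in liver at 51.2, 46, 44.6 and 46.8 against 10.8, 11 and 9.69 CPM (log2 difference 2.17, SE 0.10, adjusted p = 3.96e-09). *Sirt3*, the mitochondrial deacetylase, had 75.6, 78.8, 84.5 and 81.5 CPM in the livers and 3.5, 3.1 and 2.26 CPM in the iMEFs (log2 difference 4.76, SE 0.14, adjusted p = 9.70e-11), while its nuclear relative *Sirt1* was higher in iMEFs at 33.7, 37.4 and 39.3 against 23.2, 18.7, 24 and 14.5 CPM. The catalytic subunits of AMPK, the energy sensor, exchanged places, with *Prkaa2* at 107.6, 95.3, 79.2 and 71.8 against 0.693, 0.74 and 1.74 CPM (log2 difference 6.38, SE 0.28, adjusted p = 2.05e-09) and *Prkaa1* at 62.7, 64.9 and 73.6 CPM in the iMEFs against 24.9, 26.3, 24.1 and 19.5 CPM in the livers (log2 difference -1.50, SE 0.11, adjusted p = 2.19e-07).

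Genes of fuel use differed by pathway. Of 28 tested genes of fatty acid oxidation and ketogenesis 26 were higher in liver, against a background of 44.8%, with a median of 3.27. *Oxct1*, the enzyme that burns ketone bodies and that hepatocytes are known to lack, had 221.6, 223.4 and 228.8 CPM in the iMEFs and 6.67, 6.31, 6.98 and 5.38 CPM in the livers (log2 difference -5.15, SE 0.10, adjusted p = 4.44e-12), and was called against the majority of its list. Of 31 genes of the TCA cycle and pyruvate dehydrogenase 23 were higher in liver and 6 in iMEFs, against backgrounds of 44.8% and 40.7%. *Pcx*, pyruvate carboxylase, had 662.9, 668.1, 805.6 and 667.4 against 31.4, 27.1 and 26.4 CPM (log2 difference 4.63, SE 0.12, adjusted p = 2.97e-11). *Cs*, the gene of citrate synthase, was slightly higher in iMEFs, at 284.9, 296.9 and 286.5 against 252.7, 253.4, 212.0 and 233.5 CPM (log2 difference -0.28, SE 0.08, adjusted p = 0.00692). The activity of the enzyme is often used as a measure of mitochondrial content, and this RNA level is no such measure. The pyruvate dehydrogenase kinases parted, *Pdk2* being at 136.8, 118.5, 158.4 and 139.2 against 7.43, 7.12 and 5.66 CPM and *Pdk3* at 59.2, 65.7 and 69.2 CPM in the iMEFs against 0.861, 1.06, 0.784 and 1 CPM in the livers.

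Quality control genes also differed by member. Of 16 tested fusion, fission and mitophagy genes 10 were higher in liver and 4 in iMEFs, against backgrounds of 44.8% and 40.7%. Beyond 2-fold 5 (31.2%) were higher in liver, near the background of 32.3%. The list median of 0.39 became -0.47 on library size alone. *Pink1*, the kinase that marks damaged mitochondria, had 297.5, 270.8, 303.8 and 276.0 CPM in the livers and 15.5, 15.9 and 12.8 CPM in the iMEFs (log2 difference 4.28, SE 0.11, adjusted p = 2.46e-11). *Dnm1l*, the fission GTPase DRP1, and its receptor gene *Mff* were higher in iMEFs, at 97.3, 103.2 and 115.6 against 62.8, 71.7, 69.8 and 58 CPM and 63.5, 70.7 and 77.2 against 40, 34.8, 42 and 33.3 CPM.

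Carriers of the inner membrane were also mostly higher in liver. Of 20 tested carrier, uncoupling and pore genes 14 were higher in liver and 5 in iMEFs, against backgrounds of 44.8% and 40.7%. The median log2 difference was 1.38. *Slc25a13*, citrin, the aspartate carrier that feeds the urea cycle, had 324.1, 306.2, 371.8 and 329.6 CPM in the livers and 11.7, 10.5 and 12.9 CPM in the iMEFs (log2 difference 4.83, SE 0.11, adjusted p = 1.76e-11). *Slc25a47*, a carrier gene of liver, had 526.8, 661.5, 718.7 and 267.0 against 2.66, 2.61 and 1.52 CPM, with liver 4 lowest. In the other direction, *Slc25a24*, an ATP-magnesium and phosphate carrier, had 146.1, 150.2 and 165.1 CPM in the iMEFs and 4.66, 3.27, 4.78 and 3.87 CPM in the livers (log2 difference -5.21, SE 0.12, adjusted p = 1.56e-11).

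The 13 pairs of related genes were set against each other within each library, per kilobase of exon, which removes library scaling altogether. Each pair separated the 4 livers from the 3 iMEF libraries. Each exact two-sided permutation p was 0.0571, the smallest that the doubled form allows, also after adjustment over the 13 pairs. In 9 of the 13 the leading gene by group mean changed, and in 6 of the 10 that are described here. The POT1 pair is among the 6 per kilobase only. Without division by length the *Ccnd1* and *Ccnd2* pair changed leader in its place. Pyruvate kinase went from *Pklr* to *Pkm* (3.76 against -15.58), the glucose transporter from *Slc2a2* to *Slc2a1* (4.22 against -12.29) and methionine adenosyltransferase from *Mat1a* to *Mat2a* (5.74 against -12.70). The liver genes of these 3 pairs had no iMEF read, so the iMEF ratios depend on the 0.5 reads added. Exons of *Pklr* are overlapped on the other strand over 22% of their length. In the acyl-CoA synthetase pair *Acsl1* led in the livers and *Acsl4* in the iMEFs (3.12 against -3.07). *Acsl1* had 1353, 1442, 1747 and 1124 CPM in the livers and 20.3, 21 and 23.3 CPM in the iMEFs, while *Acsl4* had 74.2, 93.1, 79.5 and 86.6 and 88.3, 87.4 and 104.6 CPM and was not called (log2 difference -0.17, SE 0.10, adjusted p = 0.142), though it was on library size alone, at -1.02, and without the filter, at -0.30.

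**Figure D5:**
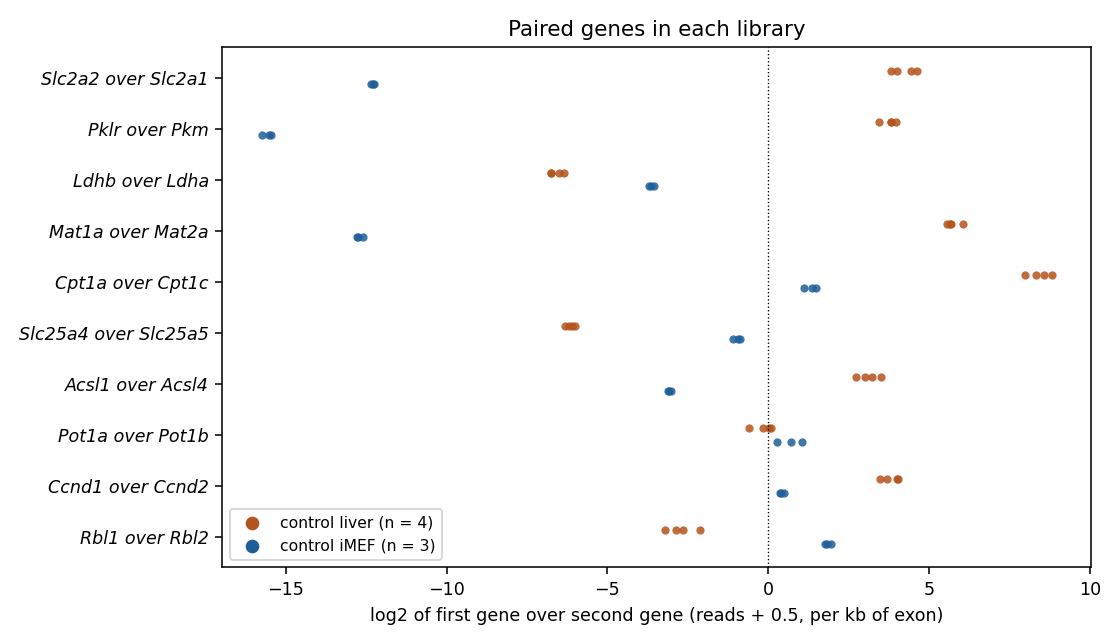
Log2 ratio of the first over the second gene of 10 pairs, per kilobase of exon and with 0.5 reads added, in each of the 4 control livers (orange) and 3 control iMEF libraries (blue). The groups do not overlap in any pair; points to the right of the dotted line mean that the first gene led.

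Other pairs kept the same leader per kilobase. *Ldha*, the lactate dehydrogenase subunit gene that favours lactate formation, led *Ldhb* in both groups (-6.59 in liver, -3.64 in iMEFs), and its own level was close in both, at 874.3, 806.1, 958.8 and 797.9 and 712.8, 786.7 and 746.6 CPM (log2 difference 0.20, SE 0.09, adjusted p = 0.0536). That adjusted p passed 0.05 with liver 2 or liver 4 left out (0.25 in either case), with RLE factors (0.22), by DESeq2 (0.22) and by limma-voom (0.19), and on library size alone with the opposite sign (-0.66). The ADP/ATP carrier gene *Slc25a5* led *Slc25a4* in both (-6.15 and -0.97): *Slc25a4*, the heart and muscle form, had 235.7, 228.3 and 206.8 CPM in the iMEFs and 11, 9.27, 8.54 and 10.8 CPM in the livers (log2 difference -4.49, SE 0.11, adjusted p = 1.57e-11), and *Slc25a5* had 525.3, 478.3, 477.1 and 488.5 CPM in the livers and 304.6, 309.4 and 305.7 CPM in the iMEFs, a direction that turned on library size alone. *Ccnd1* led *Ccnd2* by more in liver (3.80) than in iMEFs (0.42), where without division by length the ratio was -0.58 and *Ccnd2* led, and *Cpt1a*, the gate of mitochondrial fatty acid import, led the neuronal form *Cpt1c* by more in liver (8.42) than in iMEFs (1.32).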

How the data were processed

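RNA from 4 control livers and 3 control iMEF cultures was analysed. Per the submitters, RNA was extracted with RNAeasy kits and libraries were made, sequenced in pairs and aligned by Novogene; the processing notes name STAR, featureCounts and DESeq2, without versions, and the mm10 build. Strand setting, annotation release, RNA selection and the handling of reads with several matches are not stated there. The values used were the raw counts per Ensembl gene deposited by the authors, a liver table and a fibroblast table of 54532 genes each, joined by ID; 54495 IDs were found in GENCODE M21, from which symbols, exon lengths and overlaps were taken. The deposited normalised tables, scaled within 1 tissue, were not used.

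The 7 libraries were filtered (filterByExpr, 15524 genes kept), TMM-normalised and fitted with edgeR 4.0.16 (limma 3.58.1, R 4.3.3) by the quasi-likelihood test, with 5 residual degrees of freedom, Benjamini-Hochberg adjustment and a threshold of 0.05; glmTreat tested a 2-fold difference. CPM are counts scaled to a common effective library size. Shares are parts of the raw reads in genes, without TMM factors. Shares and gene pairs were compared by exact two-sided permutation tests over libraries, with the p of the smaller tail doubled. The fit was tested on simulated counts in which few genes differed. That test does not check TMM normalisation where most genes differ, as they did here. Depth was 16729877 to 20177401 reads in genes; floors of 3 reads over a group and all counts carry counting error only. Alternatives to this processing were RLE and upper quartile factors, library size alone, TMM without the 98 most abundant and the mitochondrial genes, no filter, DESeq2 1.42.0, limma-voom, stricter thresholds, a replicate block and each library left out. Promoters came from RefSeq (GRCm38.p6).

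The gene lists (48 lists, 1007 distinct genes; Ahsp was not found) and the groups were chosen with earlier results of these data known. Of the listed genes, 66 have over 20% of their exon length overlapped by another gene, 15 on the same and 53 on the opposite strand, and are uncertain to that extent. The genes named were drawn by rule from the following sets, not all of whose members are named. The sets were the members of the shelterin, end-processing, telomerase, p53 regulator, CDK inhibitor, mitochondrially encoded and biogenesis lists that a result turns on, the 10 most abundant genes and the 10 widest differences of each group, up to 4 called members in each direction of every other list with the members called against their list's majority, and the isozyme pairs. Outside that rule were *Atm*, *Atr*, *Atrx*, *Bax*, *Bbc3*, *Cbx5*, *Ccng1*, *Cdc20*, *Dbp*, *Egr1*, *Fas*, *Igfbp1*, *Mcm5*, *Npas2*, *Per1*, *Pml*, *Ube2c*, *Xist* and *Xrcc6*, 19 of 185 named genes. Results for some listed genes are not reported here.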

Additional observations from a re-analysis of the deposited data

Results flagged for a closer look

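In 188 sets of 4 control livers (the levels of 169 named genes with at least 20 liver reads, 6 shares of reads and 13 pair differences), the gap between the extreme liver and its nearest neighbour was divided by the range. It passed the 95% critical value of Dixon's test for 4 samples in 14 sets (7.45%), where chance gives about 1 in 20. Liver 2 stood apart in 5, liver 4 in 4, liver 3 in 4 and liver 1 in 1.

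Liver 2 was the highest for *Acta2* (1, 10.3, 1.72 and 1.86 CPM in livers 1 to 4, gap 0.907 of the range), *Bub1* (0.215, 0.988, 0.0784 and 0.215 CPM in livers 1 to 4, gap 0.849 of the range), *Krt7* (1.36, 4.56, 1.25 and 1.65 CPM in livers 1 to 4, gap 0.88 of the range), *Pprc1* (20.6, 33.1, 20.1 and 19.4 CPM in livers 1 to 4, gap 0.91 of the range) and *Rb1* (10.3, 13.1, 10.2 and 10.5 CPM in livers 1 to 4, gap 0.906 of the range). Liver 4 was the highest for *Tert* (10.9, 11.9, 12.8 and 31.2 CPM in livers 1 to 4, gap 0.908 of the range). Liver 4 was the lowest for *Clpx* (491.5, 513.7, 502.4 and 370.9 CPM in livers 1 to 4, gap 0.844 of the range), *Uqcrq* (392.6, 395.0, 395.6 and 373.6 CPM in livers 1 to 4, gap 0.863 of the range) and *mt-Rnr2* (582.9, 546.7, 548.8 and 358.8 CPM in livers 1 to 4, gap 0.838 of the range). Liver 3 was the highest for *Cpt1a* (357.3, 378.1, 545.1 and 373.5 CPM in livers 1 to 4, gap 0.889 of the range), *Pcx* (662.9, 668.1, 805.6 and 667.4 CPM in livers 1 to 4, gap 0.964 of the range), *Tfam* (69.3, 68.6, 78.8 and 70.1 CPM in livers 1 to 4, gap 0.851 of the range) and *mt-Co2* (99.2, 90.6, 149.6 and 92.9 CPM in livers 1 to 4, gap 0.853 of the range). Liver 1 was the lowest for *Xpc* (29.6, 34.6, 34.5 and 34.9 CPM in livers 1 to 4, gap 0.92 of the range).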

How the results depend on the processing

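Counts over all genes stayed within 1.5 times under the other scalings, DESeq2, limma-voom, no filter and each library left out (6698 to 7015 higher in liver, 6191 to 6280 in iMEFs with a library left out), with these exceptions. On library size alone, 6344 genes in place of 3831 were higher in iMEFs beyond 2-fold. With TMM kept and a 4-fold difference tested as such, 2211 were higher in iMEFs. Listed members higher in liver on library size alone numbered 3 for proliferation (7 with TMM) and 11 for the p53 pathway (21). They numbered 6 for telomeres (12) and 168 for mitochondria (259), with 104 mitochondrial members higher in iMEFs (34). List medians that turned on library size alone were those of cholangiocyte markers (-0.48; also -0.18 by limma-voom), mitochondrial ribosomal proteins (-0.27), biogenesis regulators (-0.19), import (-0.15) and fusion, fission and mitophagy (-0.47). With a library left out the cholangiocyte median ran from -0.83 to 0.68 and that of the isozyme genes from -0.21 to 0.01, the sign turning without liver 2 in both. Of 907 called list members 81 turned on library size alone, by the shift of -0.86; among named genes these were *Ccnd1* (-0.33), *Cmpk1* (-0.16), *Mdm4* (-0.01), *Polrmt* (-0.62), *Prkdc* (-0.44), *Slc25a5* (-0.18), *Tfam* (-0.35) and *Xrcc5* (-0.53). Without the most abundant genes, the log2 ratio of shares became 3.43 for mitochondrially encoded proteins (2.78 with all reads), 12.89 for plasma proteins (12.33), -4.12 for matrix genes (-3.83), -3.67 for the cell cycle lists (-4.03) and 0.98 for nuclear OXPHOS (0.55). The causes were not tested beyond what each setting changes by its construction. For 184 named genes, 2760 alternative values were computed, of which 2720 kept direction and side of the threshold, 12 lost the call, 20 gained it and 8 turned. Expression below the filter on low counts is what depth limits here.

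The replicate numbers of the labels do not pair the samples, which are mice on the one side and cultures on the other: deviations of same-numbered libraries correlated at -0.0366, -0.00907 and 0.00428. With the replicate number as a block, 6774 genes were higher in liver and 6231 in iMEFs, and beyond 2-fold 4932 and 3783; for the lists of tissue, proliferation, p53, telomere and mitochondrial genes the counts were 120, 8, 21, 12 and 254 in liver and 107, 175, 54, 38 and 33 in iMEFs. Among named genes, the block moved *Ldha* (0.23) and *Per1* (-0.70) past the threshold.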

Other observations

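Among the genes with the widest excess in the iMEFs were several of signalling and metabolism that had no read in any liver. *Crabp1* and *Crabp2*, which encode binding proteins for retinoic acid, had 91.2, 88.3 and 74.6 and 119.0, 119.9 and 95.4 CPM in the 3 iMEF libraries, at least 1518-fold and 1999-fold higher. *Grem1*, a secreted antagonist of bone morphogenetic proteins, had 114.8, 99.2 and 120.2 CPM, and *Bcat1*, the cytosolic transaminase of branched-chain amino acids, had 97.6, 99.6 and 101.5 CPM. *Hs6st2*, an enzyme that sulphates heparan sulphate chains, was the most extreme of the 10 at 186.0, 207.0 and 210.5 CPM. The desaturase gene *Scd2* was among the 10 most abundant iMEF genes, with 2487, 2515 and 2509 CPM against 15.1, 23, 12.5 and 18.9 CPM in the livers, whereas *Apoe*, the apolipoprotein gene, was second to *Alb* in the livers, with 30527, 28381, 29821 and 28479 CPM against 6.16, 4.9 and 4.96 CPM.

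Livers 1 and 2 differed from livers 3 and 4 in further genes, chosen after their values were seen. *Dbp*, an output factor of the circadian clock, had 2.3, 1.98, 9.09 and 22.2 CPM in livers 1 to 4, *Igfbp1*, an insulin-repressed gene, 297.7, 341.0, 144.9 and 64.7 CPM, and the immediate early gene *Egr1* 10.9, 17.2, 87.3 and 41.8 CPM. No label separates these pairs of livers, and no test was made. *Xist*, the RNA of the inactive X chromosome, had 915.8, 1031, 992.3 and 999.6 CPM in the livers and 259.2, 203.1 and 240.4 CPM in the iMEFs (log2 difference 2.07, SE 0.10, adjusted p = 5.29e-09), so it was present in all 7 libraries, at 4.2-fold higher levels in the livers.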
